A study of Mus musculus with 165 samples.

Results

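The genes described here are 9 genes of the mouse liver that depend, as textbook physiology has it, on growth hormone arriving in pulses: Hsd3b5, Slco1a1, Elovl3, Cyp4a12a, Cyp2d9, Cyp7b1, Ces4a, C6 and Selenbp2. They were taken by symbol from the liver table, where 9 of 55471 gene identifiers carried these names, and 9 of the 15579 genes that passed the filter on low counts. Their selection used earlier results on these same livers, above all the comparison of 28 with 3 months, so that comparison is given for them as a description and without a test. The study sequenced polyadenylated RNA from liver and brain of male C57BL/6J/Ukj mice kept only to age, with no treatment and no altered gene. Livers came from 16 mice at 3 months, 16 at 9, 16 at 15, 17 at 24 and 18 at 28 months, 83 in all, and each mouse was seen at 1 age only. Brains came from 82 mice of the same ages. All animals were male and of 1 inbred strain, and neither growth hormone nor the time of day at which tissue was taken is given in the sources used here.

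The pituitary of male rodents releases growth hormone in separated bursts, and that of females in a steadier stream. In hepatocytes each burst activates the receptor Ghr and its kinase Jak2, which phosphorylate the transcription factor Stat5b. Intermittent Stat5b activity keeps a male set of liver genes on and a female set off, and livers lacking Stat5b or the pituitary lose most of this difference between the sexes. Many of the genes encode enzymes and carriers of steroids, bile acids and lipids.

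Among the 9, Hsd3b5 encodes a steroid dehydrogenase of male mouse liver that acts as a ketosteroid reductase (chr3:98618634-98630252, minus strand, GRCm38). Slco1a1 encodes an uptake carrier for organic anions and steroid conjugates on the sinusoidal membrane (chr6:141907282-141946962, minus strand). Elovl3 encodes an elongase of very long chain fatty acids (chr19:46131897-46135694, plus strand). Cyp4a12a encodes a fatty acid omega-hydroxylase (chr4:115299046-115332815, plus strand). Cyp2d9 encodes a steroid hydroxylase (chr15:82433437-82456845, plus strand). Cyp7b1 encodes the oxysterol 7-alpha-hydroxylase of the alternative bile acid pathway (chr3:18071950-18243338, minus strand), and it is also active in brain. Ces4a belongs to the carboxylesterases (chr8:105131800-105150109, plus strand). C6 encodes a component of the membrane attack complex of complement (chr15:4727175-4814967, plus strand). Selenbp2 encodes a selenium-binding protein (chr3:94693556-94704413, plus strand). All 9 are protein-coding in the GENCODE annotation of the GRCm38 build.

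Some of these genes have close relatives, which matters for counts. Of the 100-base windows in the transcripts of Cyp4a12a, 35.82% also occurred in transcripts of another gene, in each case Cyp4a12b. The share was 17.36% for Selenbp2 (with Selenbp1), 7.91% for Cyp2d9, 7.79% for Hsd3b5 (with Hsd3b4) and 0.61% for Slco1a1, and no window of Elovl3, Cyp7b1, Ces4a or C6 was shared. The values of Cyp4a12a and Selenbp2 are therefore uncertain to the extent that the counting could split such reads. Exons of Cyp2d9 also overlapped 2 small genes on the same strand, and exons of Elovl3 overlapped 10 bases of Pitx3 on the opposite strand.

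RefSeq promoters, 250 bases before to 50 bases after the annotated start on GRCm38.p6, were at hand for 6 of the 9 genes. The following 3 are shown because Slco1a1 and Cyp2d9 hold the letters TATAAA, at different distances from the start, and Ces4a holds TTGCNNAA. Capitals mark matches to TATAAA or TTGCNNAA, on either strand. Slco1a1 (chr6:141946913-141947212, minus strand) and Ces4a (chr8:105131550-105131849, plus strand) share their start with the GENCODE annotation, whereas the RefSeq start of Cyp2d9 (chr15:82452127-82452426, plus strand) lies 18940 bases from the GENCODE gene start.
Slco1a1: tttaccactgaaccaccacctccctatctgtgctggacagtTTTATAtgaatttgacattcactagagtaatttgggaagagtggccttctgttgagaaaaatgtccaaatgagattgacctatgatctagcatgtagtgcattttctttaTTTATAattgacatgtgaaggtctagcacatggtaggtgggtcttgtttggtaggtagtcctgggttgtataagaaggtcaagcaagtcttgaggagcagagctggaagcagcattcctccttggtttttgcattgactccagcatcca
Cyp2d9: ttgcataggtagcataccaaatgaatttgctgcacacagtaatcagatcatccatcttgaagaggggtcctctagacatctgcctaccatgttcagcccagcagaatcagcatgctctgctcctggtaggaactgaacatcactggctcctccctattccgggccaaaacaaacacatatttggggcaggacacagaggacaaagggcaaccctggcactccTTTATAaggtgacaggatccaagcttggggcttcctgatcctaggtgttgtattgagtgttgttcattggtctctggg
Ces4a: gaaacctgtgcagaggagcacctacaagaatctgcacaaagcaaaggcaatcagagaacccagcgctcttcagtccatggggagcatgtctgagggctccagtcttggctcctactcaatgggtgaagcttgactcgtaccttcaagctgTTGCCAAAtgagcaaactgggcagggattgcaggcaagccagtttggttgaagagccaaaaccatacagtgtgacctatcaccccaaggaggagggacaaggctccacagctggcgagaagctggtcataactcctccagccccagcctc

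The letters TTCNNNGAA, to which Stat5 proteins bind, were in 0 of the 6 promoters and in 8.3% of 32851 RefSeq promoters of the same length. TATAAA was in 3 of the 6, against 13.6% of all promoters: on the opposite strand in Cyp2d9, with its first base at -28, and also in Slco1a1 and Selenbp2. The C/EBP letters TTGCNNAA were in 1, Ces4a, against 10.8%. The letters CAAAGTCCA (HNF4, 0.475% of all promoters), TGTTTAC (FOXA, 3.65%) and the longer HNF1 motif (0.00913%) were in 0 of the 6. Of the 6 windows, that of Hsd3b5 also lies away from the gene position given above, with its RefSeq start 15282 bases from the GENCODE start. A match of letters is a description of the window only, and the data hold no measurement of binding.

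Sequencing depth was 5.82 to 57.5 M counts per liver, with a median of 32.9 M. Levels are CPM, the count of a gene scaled to a common library total, of the TMM-scaled library. Alb, the albumin gene of hepatocytes, was at 14018 to 101255 CPM in the livers and at most 18.5 CPM in the brains, and Snap25, a neuronal gene, was at 966 CPM or more in the brains and at most 40.4 CPM in the livers. In whole liver, fewer hepatocytes and less RNA per hepatocyte cannot be told apart. The summed level of 11 hepatocyte markers had a median of 108881 CPM at 3 months and 119005 CPM at 28 months. Alb alone had medians of 65982 and 74976 CPM, so the sum mostly follows Alb. Of the 11 markers 5 were called lower at 28 than at 3 months and 0 higher, beside 30.0% and 31.9% of all tested genes. One 28-month liver, numbered 14, stood at 39508 CPM for that sum.

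At 3 months the genes ranked by level per kilobase of exon as follows. Cyp2d9 stood highest, at 512 ± 72.8 CPM per kilobase (SD, n = 16), and Elovl3 followed with 306 ± 142. Hsd3b5 (143 ± 39.2), Cyp7b1 (139 ± 79.6), Cyp4a12a (125 ± 40.0) and Slco1a1 (96.4 ± 23.6) came next. Neighbours in the order from Hsd3b5 to C6 differed by less than the larger SD of the pair. C6 was at 79.2 ± 22.6, Selenbp2 at 14.4 ± 8.54 and Ces4a, the weakest, at 2.40 ± 1.96 CPM per kilobase.

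The steroid dehydrogenase gene Hsd3b5 is described first. Its level ran from 99.6 to 374 CPM at 3 months (median 215), from 94.2 to 355 CPM at 9 months (median 231) and from 15.8 to 312 CPM at 15 months (median 210). At 24 months it ran from 0.0803 to 211 CPM with a median of 6.80 CPM, and at 28 months from 0.0489 to 48.0 CPM with a median of 0.235 CPM. The first 3 ages overlapped, apart from 1 liver of 15 months, numbered 1, whose 15.8 CPM lay far below the next lowest, 105 CPM. The lower limit of 99.6 CPM at 3 months rests on 1 liver, numbered 15, whose acute phase genes summed to 19615 CPM, the highest of that age; without it the limit was 178 CPM, and 6 instead of 1 of the 16 livers of 15 months and 2 instead of 1 of those of 9 months lay below. The 24-month livers were spread from full level to near nothing, and 15 of 17 lay below every 3-month liver. At 28 months all 18 lay below that range, and after the liver numbered 10, at 48.0 CPM, the next highest held 0.805 CPM. Libraries with 3 counts or fewer, the level taken as the floor, numbered 1 at 24 months and 2 at 28 months.

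**Figure D1:**
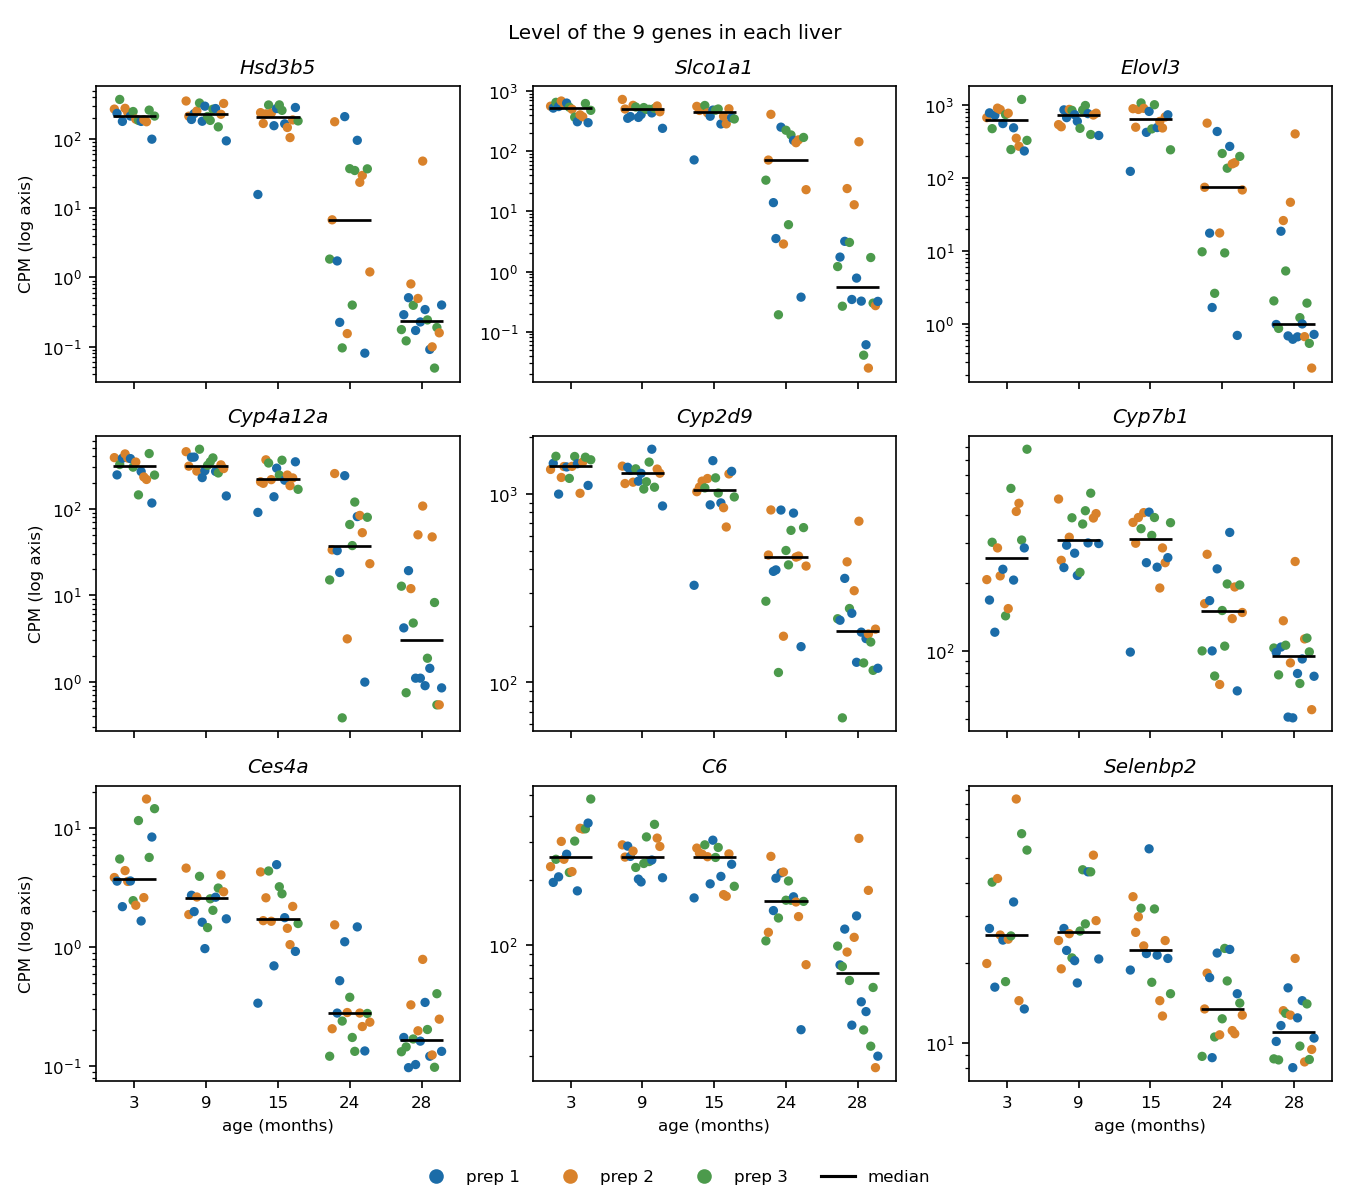
Level of each of the 9 genes in each liver, in CPM of the TMM-scaled library on a log axis, by age in months; each point is 1 mouse, coloured by library preparation, and the black line is the median of the age. For Hsd3b5 the medians are 215, 231, 210, 6.80 and 0.235 CPM, with wide scatter at 24 months and 1 of the 28-month livers far above the rest.

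The anion carrier gene Slco1a1 took a similar course. It ran from 299 to 686 CPM at 3 months (median 532), 241 to 729 at 9 months (median 499) and 71.9 to 578 at 15 months (median 457). At 24 months it ran from 0.191 to 412 CPM (median 71.5) and at 28 months from 0.0248 to 144 CPM (median 0.560). The same 15-month liver was lowest and the same 28-month liver highest, and 16 of 17 livers at 24 months lay below the 3-month range. Of the 28-month livers, 3 held 3 counts or fewer of Slco1a1.

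The elongase gene Elovl3 ran from 236 to 1203 CPM at 3 months (median 619), 385 to 993 at 9 months (median 739) and 124 to 1077 at 15 months (median 647). It ran from 0.696 to 569 CPM at 24 months (median 75.0) and from 0.248 to 405 CPM at 28 months (median 0.992). Here the 28-month liver numbered 10 reached into the 3-month range, and the other 17 did not. Cyp4a12a, the fatty acid hydroxylase gene, ran from 116 to 432 CPM at 3 months (median 312), 140 to 485 at 9 months (median 312) and 90.4 to 366 at 15 months (median 221). It ran from 0.383 to 254 CPM at 24 months (median 37.4) and from 0.541 to 107 CPM at 28 months (median 3.03). All 18 livers of 28 months lay below the 3-month range of Cyp4a12a, as did 14 of 17 at 24 months.

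Cyp2d9, the most abundant of the 9, moved over a shorter range. It ran from 1000 to 1588 CPM at 3 months (median 1402), 865 to 1731 at 9 months (median 1290), 328 to 1505 at 15 months (median 1055), 113 to 824 at 24 months (median 463) and 64.9 to 718 at 28 months (median 188). Every liver of 24 and of 28 months lay below every 3-month liver, and already 6 of 16 did at 15 months. Ces4a, at a far lower level, ran from 1.66 to 17.6 CPM at 3 months (median 3.72), 0.972 to 4.62 at 9 months (median 2.59), 0.338 to 4.94 at 15 months (median 1.72), 0.121 to 1.54 at 24 months (median 0.277) and 0.0970 to 0.789 at 28 months (median 0.166). It was the one gene of the 9 with a median at 9 and 15 months well below that of 3 months, at 69.6% and 46.2% of it. Of the 28-month livers, 1 had 3 counts or fewer of Ces4a.

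The remaining genes kept more of their level. Cyp7b1, of the alternative bile acid pathway, ran from 121 to 783 CPM at 3 months (median 258), 216 to 500 at 9 months (median 310), 98.8 to 412 at 15 months (median 312), 66.5 to 335 at 24 months (median 151) and 50.5 to 249 at 28 months (median 95.3). The complement gene C6 ran from 178 to 478 CPM at 3 months (median 257), 196 to 364 at 9 months (median 257), 165 to 307 at 15 months (median 256), 40.0 to 258 at 24 months (median 159) and 26.6 to 313 at 28 months (median 73.4). Selenbp2 ran from 13.4 to 83.3 CPM at 3 months (median 25.4), 16.8 to 51.1 at 9 months (median 26.1), 12.6 to 54.0 at 15 months (median 22.5), 8.77 to 22.7 at 24 months (median 13.4) and 8.04 to 20.8 at 28 months (median 11.0). Ranges overlapped for these 3: of the 17 livers at 24 months, 6 lay below the 3-month range for Cyp7b1, 12 for C6 and 8 for Selenbp2, and of the 18 at 28 months, 16, 16 and 14 did.

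Set against 3 months, the 28-month livers thus kept very unequal shares of these transcripts. The median at 28 months was 0.109% of the 3-month median for Hsd3b5, 0.105% for Slco1a1, 0.160% for Elovl3 and 0.972% for Cyp4a12a. It was 4.45% for Ces4a, 13.4% for Cyp2d9, 28.6% for C6, 36.9% for Cyp7b1 and 43.2% for Selenbp2. The fitted log2 fold changes between 28 and 3 months, with their SE and no test, were -6.67 ± 0.78 for Hsd3b5, -6.28 ± 0.72 for Slco1a1, -5.17 ± 0.74 for Elovl3, -4.66 ± 0.36 for Ces4a and -4.61 ± 0.54 for Cyp4a12a. They were -2.57 ± 0.20 for Cyp2d9, -1.66 ± 0.19 for C6, -1.57 ± 0.19 for Cyp7b1 and -1.47 ± 0.19 for Selenbp2. The median over the 9 was -4.61, beside 0.01 over all 15579 genes. As this contrast chose the genes, nothing is read from the fact that all 9 lie among the 30.0% of tested genes called lower in it. The fit works on means, and 1 liver weighed on them: without the 28-month liver numbered 10 the log2 fold change was -9.61 for Hsd3b5, -7.64 for Slco1a1 and -6.74 for Elovl3.

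**Figure D2:**
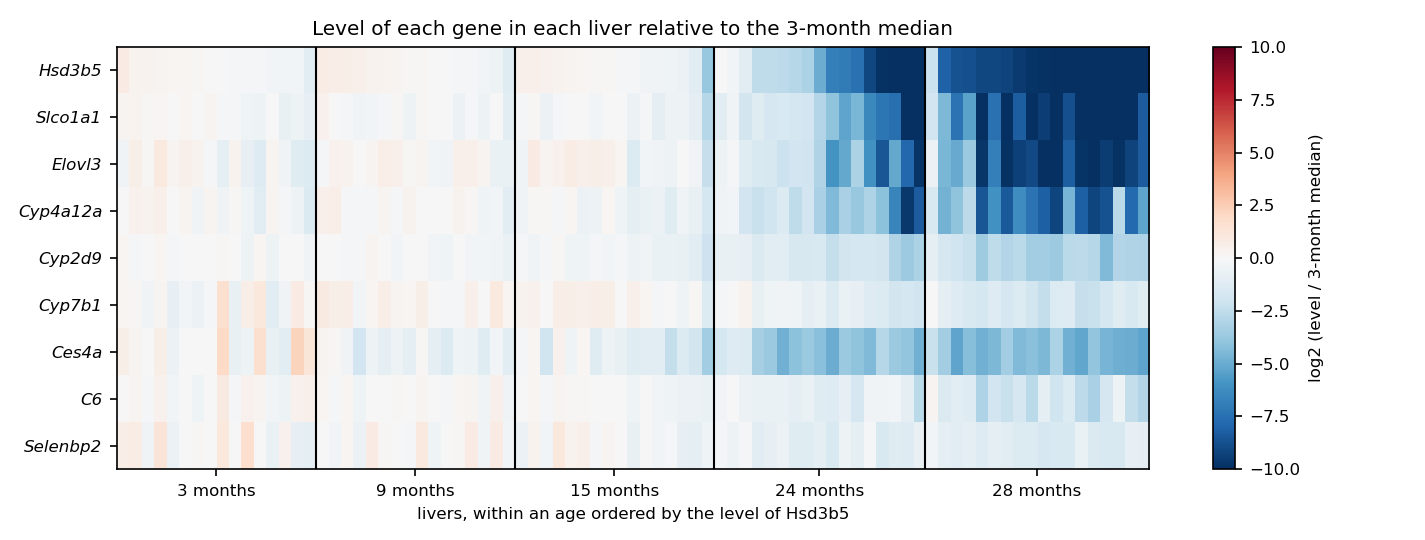
Level of each gene (rows) in each of the 83 livers (columns) as log2 of its ratio to the 3-month median of that gene; livers are grouped by age and, within an age, ordered by their level of Hsd3b5, highest first; ratios beyond the ends of the colour scale take its end colour. The 24-month block runs from near 0 at its left edge to deep blue at its right, and Cyp2d9, Cyp7b1, C6 and Selenbp2 stay paler than Hsd3b5, Slco1a1 and Elovl3 at 28 months.

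The next question was between which ages the levels changed, using livers that took no part in the 28 against 3 month contrast. Between 9 and 15 months 0 of the 9 genes was called lower or higher (edgeR quasi-likelihood test, Benjamini-Hochberg adjustment over 15579 genes, threshold 0.05). No gene of the 9 had an unadjusted p under 0.05, the smallest being 0.109 for Cyp2d9 (log2 fold change -0.32 ± 0.20), and DESeq2 and limma voom also called 0 of 9. In that step 0.0514% of all genes were called, 8 genes. The log2 fold changes of the 9 ran from -0.50 (Cyp4a12a) to -0.15 (Cyp7b1), all below 0.

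Between 15 and 24 months 7 genes were tested, and all 7 fell, against 14.4% of all tested genes called lower and 21.6% called higher in this step. The other 2 are given without a test: Hsd3b5 (-2.40 ± 0.65), which an earlier account of these data had already named for this step, and Ces4a (-2.32 ± 0.34); neither passed the filter on low counts through the 24-month livers alone. The 9 genes were chosen with earlier results of these livers known, so the count of 7 is not independent of that choice. Elovl3 fell by 2.19 ± 0.64 on the log2 scale (edgeR adjusted p = 0.00489), Slco1a1 by 1.91 ± 0.59 (adjusted p = 0.00828) and Cyp4a12a by 1.81 ± 0.49 (adjusted p = 0.00243). Cyp2d9 fell by 1.11 ± 0.20 (adjusted p = 1.5e-05), Cyp7b1 by 0.91 ± 0.20 (adjusted p = 2.0e-04), Selenbp2 by 0.78 ± 0.19 (adjusted p = 9.7e-04) and C6 by 0.59 ± 0.19 (adjusted p = 0.0124). The median was -1.11 over these 7 and -1.81 over the 9, beside 0.02 over all genes. The 24-month livers also feed the comparison of 28 with 24 months, where the log2 fold changes, given without a test since the 28-month livers chose the genes, were -4.13 ± 0.71 for Hsd3b5, -3.98 ± 0.66 for Slco1a1, -2.99 ± 0.68 for Elovl3 and -2.46 ± 0.50 for Cyp4a12a. They were -1.04 ± 0.19 for Cyp2d9, -0.95 ± 0.36 for Ces4a, -0.82 ± 0.19 for C6, -0.71 ± 0.19 for Cyp7b1 and -0.32 ± 0.19 for Selenbp2. In this fit and also by medians, Ces4a, Selenbp2 and Cyp7b1 had the larger fold change of these 2 steps between 15 and 24 months, and Slco1a1, Elovl3, Cyp4a12a and C6 between 24 and 28 months. The steps of Hsd3b5 (medians from 210 to 6.80 and to 0.235 CPM) and of Cyp2d9 (from 1055 to 463 and to 188 CPM) had no such order, since fit and medians differed. The difference between the steps was not tested.

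**Figure D3:**
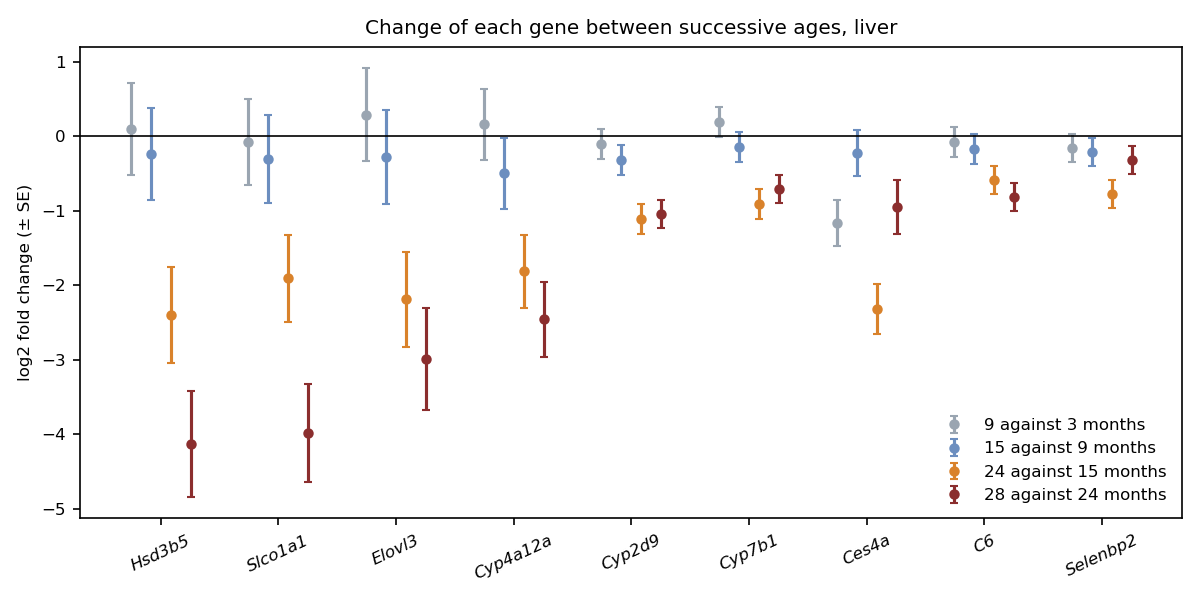
Log2 fold change of each gene between successive ages in liver, with its SE, from 1 edgeR fit over 83 livers; colours mark the 4 steps. The steps of 9 against 3 and 15 against 9 months lie near 0 except for Ces4a between 3 and 9 months (-1.17 ± 0.31), and those of 24 against 15 and 28 against 24 months lie below 0 for all 9 genes.

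The step from 15 to 24 months was also taken within each library preparation, of which the labels name 3, each with 4 to 7 livers per age. All 9 genes were lower at 24 months in each prep, but fewer of the 7 tested genes passed the threshold. With the livers of prep 1, 0 of the 7 passed. Cyp2d9 and Cyp7b1 passed with those of prep 2, and these, Elovl3 and Cyp4a12a with those of prep 3. The share of all genes called within 1 prep is not given here, so nothing is read from how many passed. Hsd3b5 differed by -1.54, -2.25 and -3.83 in preps 1, 2 and 3. Slco1a1 (-1.91, -1.78 and -2.20, edgeR adjusted p = 0.469, 0.159 and 0.0859), C6 and Selenbp2 passed in no prep alone. DESeq2 gave no adjusted p for Hsd3b5 and Slco1a1 and called the rest of the 7 tested genes. Scaled to hepatocyte markers instead of all genes, C6 did not pass (-0.51, edgeR adjusted p = 0.0867), while the rest of the 7 tested genes did.

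For Hsd3b5, Slco1a1, Elovl3, Cyp4a12a, Cyp2d9 and Ces4a, the SD of log2 level over mice was highest at 24 months, whereas Cyp7b1 and Selenbp2 were most spread at 3 months and C6 at 28 months. By the ratio of the highest to the lowest liver the order was not the same: it was larger at 28 than at 24 months for Slco1a1 (5824 against 2151), Elovl3 (1632 against 818) and Cyp2d9 (11.1 against 7.32), and larger at 15 months for Ces4a (14.6 against 12.7). The SD of log2 level of Hsd3b5 over livers was 0.417 at 3 months, 1.03 at 15 months, 3.88 at 24 months and 2.04 at 28 months, and for Slco1a1 it was 0.385, 0.720, 3.37 and 3.13. For Selenbp2 it was 0.770, 0.543, 0.451 and 0.378. Counting for each liver how many of the 9 genes lay below the lowest 3-month liver gave 0 genes in 12 of 16 livers at 9 months and in 8 of 16 at 15 months. At 24 months no liver had 0, the median was 8 genes, and 15 of 17 livers had 5 or more. At 28 months the median was 9 genes and 12 of 18 livers had all 9. Without the 3-month liver numbered 15, which sets the lower limit for 5 of the genes, 0 genes were below in 11 of 16 livers at 9 months and in 7 of 16 at 15 months, 15 of 17 livers of 24 months again had 5 or more, and 13 of 18 of 28 months had all 9.

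Single livers show the gradation. The 24-month liver numbered 3 held 178 CPM of Hsd3b5, 412 of Slco1a1 and 569 of Elovl3, with 2 of the 9 genes below the 3-month range, and number 7 held 211, 252 and 437 CPM with 3 genes below. Livers 9, 11, 13, 14 and 16 of that age lay between, at 23.7 to 37.3 CPM of Hsd3b5 and 139 to 224 CPM of Slco1a1. At the other end, livers 6 and 15 held 0.0957 and 0.0803 CPM of Hsd3b5 and 0.191 and 0.375 CPM of Slco1a1. The 24-month values were thus spread over the whole span between the 3-month and the 28-month levels. Among younger mice, the 15-month liver numbered 1 had 8 of the 9 genes below the 3-month range and number 13 had 5. Among the oldest, number 10 of 28 months had 5, with Slco1a1 at 144 CPM, Cyp4a12a at 107 CPM and C6 at 313 CPM, above the 3-month median of C6.

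Whether the genes were low in the same mice was asked within single ages, with Hsd3b5 as the reference and prep means removed, in a family of 48 relations of which 29 passed an adjusted p of 0.05 (Pearson's r, two-sided permutation test, Benjamini-Hochberg over the 48). Within 24 months (17 livers), Hsd3b5 rose and fell with Slco1a1 (r = 0.95, rho = 0.97), Elovl3 (r = 0.96, rho = 0.96), Cyp7b1 (r = 0.92, rho = 0.91), Cyp2d9 (r = 0.88, rho = 0.89) and Cyp4a12a (r = 0.87, rho = 0.90), each with a permutation p of 1.0e-05, the smallest that the resamples can give, and an adjusted p of 6.9e-05 for r and 9.6e-05 for rho. These 5 kept r between 0.83 and 0.96 without the 2 livers farthest from the median. Ces4a passed for r only (r = 0.64, permutation p = 0.00475, adjusted p = 0.0101; rho = 0.53, permutation p = 0.0297, adjusted p = 0.0747). C6 (r = 0.42, rho = 0.34, adjusted permutation p = 0.139 and 0.257) and Selenbp2 (r = 0.48, rho = 0.52, adjusted permutation p = 0.0764 and 0.0747) did not pass.

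Within 15 months (16 livers), 7 of the 8 relations passed for r, from r = 0.96 for Slco1a1 (rho = 0.75) and 0.95 for Cyp2d9 (rho = 0.76) to 0.67 for C6 (rho = 0.53), with Selenbp2 at 0.47 (adjusted permutation p = 0.0879). The smallest r that passed at 15, 24 and 28 months was 0.66, 0.64 and 0.52 in size, and of the 15578 other tested genes 7.2%, 6.8% and 4.1% were related to Hsd3b5 at least that closely in either direction, and 3.9%, 3.2% and 1.8% with a positive r. Without the 2 livers farthest from the median, among them the low liver, r was 0.82 for Slco1a1, 0.84 for Cyp2d9 and 0.56 for Ces4a. Within 28 months (18 livers), where 17 livers hold Hsd3b5 near the floor and 1 stands apart, 6 of 8 passed for r but only Ces4a for rho (rho = 0.58, adjusted permutation p = 0.0387). Without 2 livers r fell from 0.73 to 0.46 for Slco1a1, from 0.70 to 0.32 for Ces4a and from 0.55 to 0.00 for Selenbp2, so these relations rest on those livers. Over all 83 livers with age and prep means removed, the 36 pairs among the 9 genes had r between 0.21 (Ces4a with Cyp4a12a) and 0.90 (Elovl3 with Slco1a1), median 0.49. These are descriptions, since livers share depth and preparation.

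**Figure D4:**
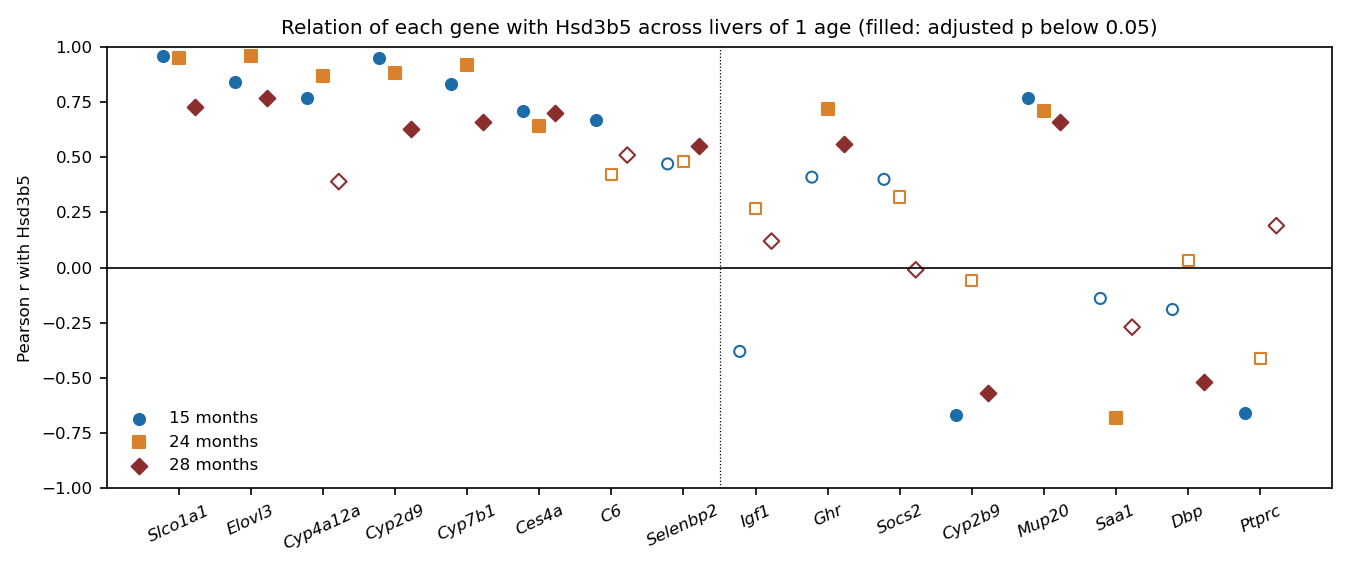
Pearson r of each gene with Hsd3b5 over livers of 1 age, after removing prep means, for 8 genes of the set (left of the dotted line) and 8 other genes; circles, squares and diamonds are 15, 24 and 28 months, and filled symbols have an adjusted permutation p below 0.05. Slco1a1 and Elovl3 reach 0.95 and 0.96 at 24 months, and Igf1 and Socs2 are open at all 3 ages.

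Of the 8 other genes, 3, 3 and 4 passed for r at 15, 24 and 28 months, some of them with r below 0. Their median r was -0.17, 0.15 and 0.06. Mup20, which encodes the male urinary protein darcin, rose and fell with Hsd3b5 at 15 months (r = 0.77, rho = 0.66), 24 months (r = 0.71, rho = 0.72) and 28 months (r = 0.66, rho = 0.50), with adjusted permutation p of 0.00100, 0.00148 and 0.0208 for r and 0.0204, 0.00942 and 0.0747 for rho. The growth hormone receptor gene Ghr passed at 24 months (r = 0.72, rho = 0.68, permutation p = 0.00137 and 0.00318, adjusted 0.00387 and 0.0128) and, for r only, at 28 months (r = 0.56, adjusted permutation p = 0.0301), where r was 0.17 without 2 livers. The hormone's classical target Igf1 (r = 0.27 at 24 months, adjusted permutation p = 0.332) and the feedback inhibitor Socs2 (r = 0.32, adjusted permutation p = 0.254) passed at no age. The acute phase gene Saa1 ran against Hsd3b5 at 24 months (r = -0.68, rho = -0.69, permutation p = 0.00195 and 0.00320, adjusted 0.00468 and 0.0128), and the clock output gene Dbp at 28 months for r only (r = -0.52, rho = -0.44, adjusted permutation p = 0.0373 and 0.118). The female-biased Cyp2b9 passed at 15 months (r = -0.67, rho = -0.67, adjusted permutation p = 0.00468 and 0.0201) and, for r only, at 28 months (r = -0.57, adjusted permutation p = 0.0208), and was at r = -0.06 at 24 months (adjusted permutation p = 0.859). The leukocyte gene Ptprc passed at 15 months for r only (r = -0.66, rho = -0.37, adjusted permutation p = 0.0101 and 0.227).

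Of the 5 genes most like the 9 in their variation between mice of the same age, 4 encode major urinary proteins. By Pearson r with the mean z-score of the 9 over 83 livers, age and prep means removed, the 5 closest were Mup12 (0.90), Mup1 (0.89), Mup21 (0.88), Slc22a28 (0.87) and Mup20 (0.85). The 5 most opposed were Slc22a26 (-0.82), Cyp2c39 (-0.80), Akr1b7 (-0.76), Sult3a1 (-0.75) and Slc22a27 (-0.72). Mup genes are near-identical, so reads may be shared among them, and Slc22a26, Slc22a27 and Slc22a28 are close relatives that nevertheless stood at opposite ends.

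A further 19 genes, listed as male-biased in liver and not among the 9, mostly moved the same way. Between 28 and 3 months 17 of 19 fell and 2 rose, where 30.0% of all tested genes were called lower and 31.9% higher, and their median log2 fold change was -1.56 beside 0.01 over all genes. This list and those that follow were likewise made with earlier results of these livers known, so their counts are descriptions and no independent support. A gene that passed the filter on low counts only through the age where it is high had to differ, so the filter was also applied to the livers of 1 age: of the 19 genes 16 passed it through the 28-month livers alone, of which 14 fell and 2 rose. Cyp4a12b, the close relative of Cyp4a12a, at -4.27 ± 0.49, and Cspg5, at -4.00 ± 0.36, did not pass it there and are given without a test. Ugt2b38, a glucuronosyltransferase gene, changed by -3.46 ± 0.31 (edgeR adjusted p = 1.6e-15) and Serpina1e, a protease inhibitor gene, by -2.81 ± 0.32 (adjusted p = 1.1e-11). The corepressor gene Trim24 (1.72 ± 0.17, edgeR adjusted p = 9.7e-14) rose, and Sybu, which did not pass the filter through the 3-month livers alone, was at 3.70 ± 0.43. All livers came from males, so the sex bias of the listed genes, Trim24 and Sybu among them, was not measured here. All 20 Mup genes that could be tested, of 22, were called lower, but only 6 of them passed the filter through the 28-month livers alone; these 6 fell, with a median of -3.52. Mup17, Mup11, Mup15 and Mup14, which did not pass it there, were lowest at -7.75 ± 0.67, -7.17 ± 0.60, -7.05 ± 0.72 and -6.87 ± 0.73. Between 15 and 24 months, where 14.4% of all tested genes were called lower and 21.6% higher, 13 of the 19 and 20 of the 20 Mup genes were called lower, and 1 of the 19, Sybu, higher. Of those that passed the filter through the 24-month livers alone, 11 of 17 and 18 of 18 were called lower; Sybu did not pass it through the 15-month livers alone.

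The female-biased genes, which pulses of growth hormone hold down in males, were higher in the old livers. Of 25 listed, 20 could be tested between 28 and 3 months, but 11 of the 20 did not pass the filter through the 3-month livers alone and so had to be higher later; they are given without a test. The 9 that passed it at 3 months all rose, against 31.9% of all tested genes, with a median log2 fold change of 1.65. Among these 9, the P450 genes Cyp2c69 and Cyp2c40 had medians of 1.12 and 2.87 CPM at 3 months and of 26.4 and 25.1 CPM at 28 months (log2 fold change 4.65 ± 0.55 and 2.72 ± 0.42, edgeR adjusted p = 3.3e-11 and 4.9e-08), and the fatty acid carrier gene Cd36 had medians of 43.4 and 74.7 CPM (0.83 ± 0.12, adjusted p = 1.6e-08). Among the 11, Slc22a26, an organic anion transporter gene, ran from 0.109 to 2.20 CPM at 3 months (median 1.08) and from 21.9 to 482 CPM at 28 months (median 247). Cyp2b13 held 3 counts or fewer in 15 of 16 livers at 3 months and ran from 1.98 to 123 CPM at 28 months (median 36.2). Sult1e1, the estrogen sulfotransferase gene, was at that floor in 15 of 16 livers at 3 months and ran from 0.471 to 42.3 CPM at 28 months (median 8.09). All 25 listed genes summed to a median of 109 CPM at 3 months, 305 CPM at 24 months and 1036 CPM at 28 months. Among the 24-month livers, the 20 tested genes summed to 122 CPM in number 3, which had the most Slco1a1, and to 1302 CPM in number 15, which had the least Hsd3b5. The order did not hold throughout that age: numbers 8 and 5, with Hsd3b5 at 0.154 and 0.224 CPM, had sums of 200 and 294 CPM, below the median.

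**Figure D5:**
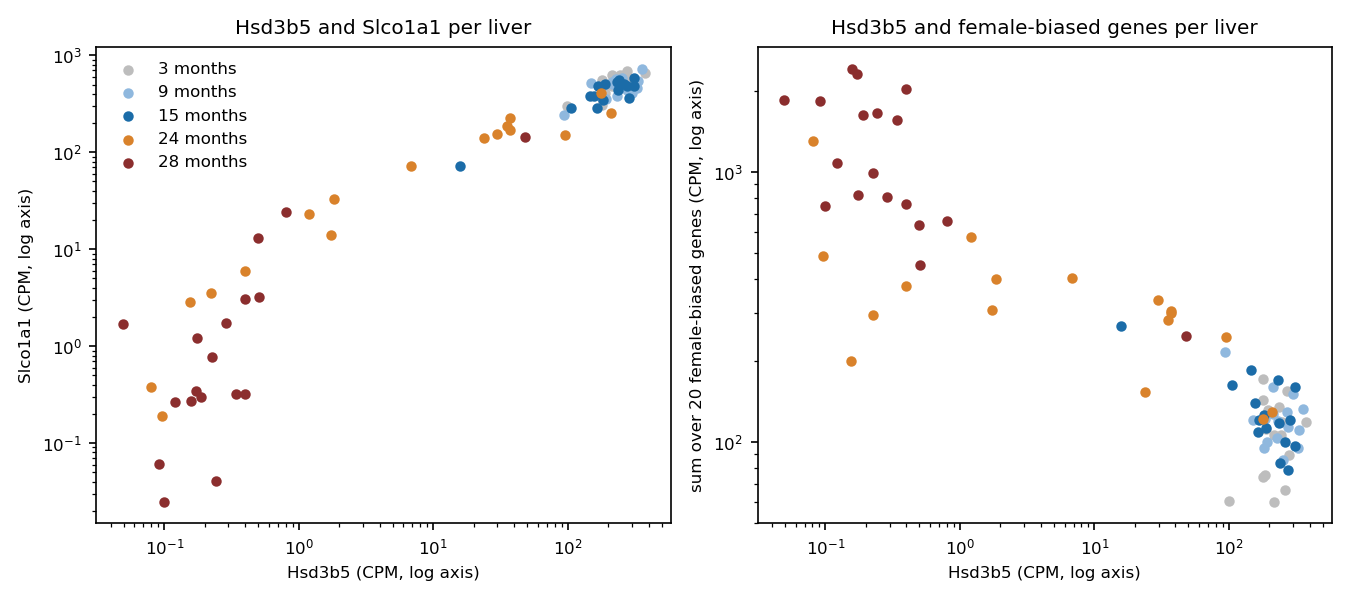
Level of Hsd3b5 (x axis) against Slco1a1 (left) and against the summed level of the 20 tested female-biased genes (right) in each of the 83 livers, in CPM on log axes, coloured by age. The 24-month livers run along the whole diagonal on the left, and on the right every liver with a sum above 1000 CPM had Hsd3b5 at 0.399 CPM or less.

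The genes that carry the signal of growth hormone were called about as often as all genes. Of 19 tested between 28 and 3 months, 6 rose, 6 fell and 7 were not called, shares close to the 31.9% of all genes called higher and the 30.0% called lower, and the median was 0.06; 5 of the 6 that rose passed the filter through the 3-month livers alone. The receptor gene Ghr changed by -0.67 ± 0.08 (edgeR adjusted p = 4.1e-11), from a median of 547 to 347 CPM, and its 24 against 15 month change was -0.35 ± 0.08 (adjusted p = 5.3e-04). Stat5b, the transcription factor gene, was at -0.15 ± 0.09 (adjusted p = 0.163) and Igf1 at -0.09 ± 0.08 (adjusted p = 0.302), neither called, whereas Stat5a fell by 0.46 ± 0.11 (adjusted p = 2.0e-04). The fall of Stat5a did not pass with a clock score in the fit (-0.08, adjusted p = 0.563) or with hepatocyte marker scaling (-0.25, adjusted p = 0.137). Bcl6, a repressor that shares sites with Stat5, fell by 2.00 ± 0.39 (adjusted p = 9.3e-06), and Onecut1, a hepatocyte transcription factor gene, by 1.56 ± 0.42 (adjusted p = 9.1e-04), though Onecut1 was at -0.32 with limma voom (adjusted p = 0.602), and at -1.09 and -1.64 in preps 1 and 2 alone (adjusted p = 0.233 and 0.152). The feedback inhibitor Socs3 (2.02 ± 0.35, adjusted p = 7.1e-07), the prolactin receptor gene Prlr (0.99 ± 0.12, adjusted p = 8.9e-11) and the phosphatase gene Ptpn1 (0.94 ± 0.16, adjusted p = 8.4e-07) rose. In prep 2 alone Bcl6 (-0.84, adjusted p = 0.353), Ptpn1 (0.50, adjusted p = 0.138) and Stat5a (adjusted p = 0.998) did not pass, and in prep 1 alone Socs3 did not (1.28, adjusted p = 0.0935). Socs1, a further inhibitor, did not pass the filter through the 3-month livers alone and was at 1.29 ± 0.33. Socs2 (0.41 ± 0.30, adjusted p = 0.234) and Cish (0.52 ± 0.46, adjusted p = 0.328), both direct targets of Stat5, were not called.

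Markers of other cells and states moved with age in the same livers. Between 28 and 3 months, where 31.9% of all tested genes were called higher and 30.0% lower, 8 of 8 Kupffer cell and macrophage markers, 7 of 7 B and plasma cell markers and 6 of 7 T and cytotoxic cell markers rose. Of those that passed the filter through the 3-month livers alone, 8 of 8, 5 of 5 and 3 of 4 rose. Between 15 and 24 months 5 of 8, 6 of 7 and 6 of 7 were called higher, beside 21.6% of all genes, and of those that passed the filter through the 15-month livers alone 5 of 8, 5 of 6 and 5 of 6. Of 8 stellate cell and fibroblast markers 5 rose between 28 and 3 months and 4 between 15 and 24 months, and of the 4 genes of fetal or tumour liver that passed the filter through the younger livers of each comparison alone, 3 were called higher and 1 lower between 28 and 3 months and 2 higher between 15 and 24 months. The summed levels of the Kupffer cell and macrophage, B and plasma cell, and T and cytotoxic cell markers ran from 328 to 1200, 6.26 to 25.9 and 3.66 to 35.0 CPM over the 3-month livers and from 532 to 4693, 15.4 to 366 and 10.5 to 73.0 CPM over the 28-month livers. Of 11 hepatocyte markers 5 fell and 6 were not called, with log2 fold changes from -0.77 to 0.22, where those of the 9 genes ran from -6.67 to -1.47. Of 8 acute phase genes 6 rose between 15 and 24 months, beside 21.6% of all genes, with a median of 2.92. Livers 5, 6 and 8 of 24 months held acute phase sums of 67421, 40524 and 52647 CPM and Hsd3b5 at 0.224, 0.0957 and 0.154 CPM, while livers 10 and 15 held 8149 and 7684 CPM and Hsd3b5 at 0.398 and 0.0803 CPM. Of the 6 clock genes of the high phase that passed the filter through the 3-month livers alone 4 rose between 28 and 3 months, beside 31.9% of all genes, and 0 of the 7 tested was called between 15 and 24 months. Of the 4 of the opposite phase that passed it through the 28-month livers alone 4 fell from 3 to 28 months, beside 30.0% of all genes, and 2 of 5 fell from 15 to 24 months, a step with 14.4% of all genes called lower. With the clock score as a covariate the 7 genes tested in that step were called lower, C6 with the largest adjusted p (-0.56, edgeR adjusted p = 0.0106). The part of the immune cells, of the acute phase and of the clock in the fall of the 9 genes was not tested.

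In the brains, which the selection did not use, most of the 9 genes were barely detected. Hsd3b5 had 0 counts in all 82 brains, which allows up to 3 counts per library, and Slco1a1, Elovl3, Cyp4a12a, Ces4a and C6 had a median of 0 CPM at every age. Cyp2d9 stayed at 0.271 CPM or less. Cyp7b1 and Selenbp2 passed the filter there. Cyp7b1 ran from 15.7 to 24.4 CPM at 3 months (median 20.8) and from 13.2 to 36.9 CPM at 28 months (median 17.9), and its ranges overlapped at all ages. Its change between 28 and 3 months was -0.13 ± 0.07 (edgeR adjusted p = 0.189), and that of Selenbp2, at 0.191 CPM on average, was 0.26 ± 0.20 (adjusted p = 0.334). Thus 0 of 2 were called by edgeR, 0 by DESeq2 and 1 by limma voom, 0 had an unadjusted p under 0.05, and 28.3% of the 18711 genes tested in brain were called. Without the brain of 28 months numbered 15, the highest for Cyp7b1, 1 of the 2 was called.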

How the data were processed

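Polyadenylated RNA of 83 livers and 82 brains was sequenced with a stranded kit, per the labels' protocols. The authors deposited 1 table of raw counts per tissue for 55471 Ensembl identifiers, of which 55144 matched a symbol. Per the submitters' processing notes, cutadapt 2.8, HISAT2 2.1.0, SAMtools 1.9 and featureCounts of Subread 2.0.1 were used with builds GRCm38.p6 and mm10; the annotation release, strand setting and treatment of multi-mapping reads are not given in the sources used here. Gene positions and exon lengths came from GENCODE M21 and promoters from RefSeq, both on GRCm38.

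Each tissue was fitted with edgeR 4.0.16 (R 4.3.3) by a quasi-likelihood model over all its libraries, whose terms were age and library preparation, after filterByExpr by age and TMM scaling. Two-sided tests were adjusted by the Benjamini-Hochberg method over all genes tested (15579 in liver, 18711 in brain), and genes count as called below an adjusted p of 0.05. The SE was obtained from the log2 fold change and the F statistic, as their size over the root of F. A library with 3 counts or fewer was taken to be at the floor, which covers counting error alone because reads copied in PCR were not separated. Relations between genes used log2 CPM (prior count 2) and 100000 permutations. Spread of log2 level used log2(CPM + 0.01). No pair of libraries of 1 age agreed within sampling noise, with a lowest chi-square per degree of freedom of 8.97 in liver and 5.34 in brain (a repeated deposit of 1 library would give about 1). The fit was tested on simulated data.

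The 9 genes and all gene lists were chosen with earlier results of these data known. All 9 genes are named; of each other list, up to 4 called genes with the lowest and up to 4 with the highest log2 fold change between 28 and 3 months, at a mean of at least 1 CPM; genes named beyond that rule (Stat5b, Igf1, Socs2, Cish, Cyp2c69, Cyp2c40, Cd36) were added after their values were seen. One gene that this rule would name is not reported here. Alternatives were RLE factors, DESeq2 1.42.0, limma 3.58.1 voom with quality weights, no filter, a mean of at least 1 CPM, only the 2 ages compared, no prep term, each prep alone, the replicate number as a block, each library left out, a clock score as covariate and scaling to hepatocyte markers; the filter by livers of 1 age and the range without 1 3-month liver were added after seeing the data. Columns left unused numbered 0.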

Additional observations from a re-analysis of the deposited data

Results flagged for a closer look

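The fall of Cyp7b1 between 15 and 24 months differed between the tissues. Its log2 fold change in liver minus that in brain was -0.88 ± 0.21 (adjusted p = 0.00112; edgeR, interaction of tissue and age over the 14035 genes kept in liver and brain, of which 2643 were called). The change was -0.91 ± 0.20 in liver and -0.03 ± 0.07 in brain. Selenbp2, the only other of the 9 genes that passed the filter in both tissues, had a difference of -0.66 ± 0.35 (adjusted p = 0.183). This comparison was added after seeing the data, and the pairing of tissues within mice is not in the fit. Chosen genes with a fall in liver may differ from brain for that reason alone, and the cause was not tested.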

How the results depend on the processing

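Among results with no change of direction under any setting were the falls of the 7 genes tested between 15 and 24 months. In the fits by prep, with fewer livers, 0 of the 7 passed in prep 1 alone. Cyp2d9 and Cyp7b1 passed in prep 2 alone, and these, Elovl3 and Cyp4a12a in prep 3 alone. C6 did not pass with hepatocyte marker scaling, and DESeq2 gave no adjusted p for Slco1a1. The other settings, and all 33 fits that left out 1 library, called all 7. The count between 9 and 15 months was 0 under all 13 settings and 0 in all 32 such fits. The median log2 fold change between 28 and 3 months was -2.74 in prep 2 alone and -4.89 to -4.44 over fits without 1 library; that between 28 and 24 months was -2.00 with only the 2 ages compared, -2.04 in prep 1 alone, -0.42 in prep 2 alone and -1.21 to -0.96 without 1 library. In prep 2 alone, which holds the 28-month liver numbered 10, 10 of the other male-biased genes were called lower and 3 growth hormone signalling genes were called. Left-out libraries gave 17 male-biased, 20 female-biased and 12 signalling genes throughout, but these counts hold genes that the filter kept through their high age only. Of the 20 female-biased genes, 11 did not pass it through the 3-month livers alone and had to be higher later. Of the 17 male-biased genes, 14 passed it through the 28-month livers alone. In brain 1 of 2 genes was called with limma voom and 1 in prep 1 alone, and 0 to 1 without 1 library. The 29 relations numbered 29 with RLE factors and 30 with prep means kept. With the replicate number as a block, 0 of the 9 genes were called between 9 and 15 months and 0 in brain, and the medians were -4.57 and -1.02. The numbers share no mouse between ages: livers of the same number had a median correlation of 0.01 over 161 pairs, 31 of them over 0.1. For single genes, no value changed sign among those called. Between 28 and 3 months Hsd3b5 ran from -10.39 in prep 3 alone to -4.50 in prep 2 alone, and was -8.41 with the replicate block. Of the 18 oldest livers 2 held 3 counts or fewer of Hsd3b5, so the levels of that gene among them rest on few counts.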

Other observations

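Cux2, which encodes a repressor of male-biased genes in female liver, belonged to the female-biased list. It ran from 0.252 to 0.620 CPM at 3 months, 0.233 to 26.2 CPM at 24 months and 0.293 to 105 CPM at 28 months, with medians of 0.496, 0.670 and 31.4 CPM. The 24-month median thus lay close to that of 3 months, but the 3 highest livers of 24 months held 26.2, 9.85 and 8.71 CPM. The relation of Cux2 to the fall of the 9 genes was not tested. Cyp2b9, a female-biased P450 gene, had medians of 3.23, 92.6 and 245 CPM at these ages. Both were named after their values were seen.

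Selenbp2 and Cyp7b1 were widest at 3 months, with highest values of 83.3 and 783 CPM against medians of 25.4 and 258 CPM. The 3-month livers that set the lower limit for counting were number 15 for Hsd3b5, Slco1a1, Elovl3, Cyp4a12a and Selenbp2, number 4 for Cyp2d9 and Cyp7b1, and number 11 for Ces4a and C6.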
